A study of Homo sapiens with 6 samples.

Results

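NTSR1, LYPD1 and MN1 are 3 of the 47432 genes counted in each library of the established human melanoma cell line LOX-IMVI. They were picked by name because their exon reads rose strongly in cells in which NFKBIZ was knocked down, so their rise is described here and not tested. The cells carried a lentiviral pLKO short hairpin RNA (shRNA) vector, selected with puromycin, that expressed either a control hairpin (shCtrl) or a hairpin against NFKBIZ (shNFKBIZ), the gene of the nuclear co-regulator IκBζ. RNA of 3 shCtrl and 3 shNFKBIZ cultures was sequenced, which the study describes as independent experiments. A single hairpin sequence was used against NFKBIZ, so an effect of its target and an effect of that hairpin on other transcripts cannot be told apart.

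The members belong to unrelated protein families. NTSR1 is the high-affinity receptor of neurotensin, a peptide of brain and gut. It couples to Gq proteins, which activate phospholipase C, release calcium from internal stores and activate protein kinase C. LYPD1, also called Lynx2, is a small protein of the Ly6/uPAR family that is held at the outer membrane by a lipid anchor and modulates nicotinic acetylcholine receptors. MN1 is a nuclear transcriptional coactivator that works with chromatin remodelling complexes of the BAF type and with retinoid receptors, and it is known from gene fusions in myeloid leukaemia.

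Each library held 22264473 to 24624839 exon reads. NFKBIZ, the targeted gene, went from 44.5 ± 4.12 to 13.7 ± 0.362 TPM (SD, n = 3). TPM are exon reads per exon length, scaled to 1 common sum per library. Its log2 fold change was -1.78 (SE 0.0581, edgeR quasi-likelihood test adjusted P 7.2e-17). Log2 fold changes, and the folds given with them, come from the edgeR fit with its own library scaling. They therefore differ somewhat from the ratios of mean TPM. Of the melanocyte lineage markers, MLANA and SOX10 had no exon read in the 6 libraries. The 7 markers summed to 3.19 to 4.23 TPM in shCtrl and 1.79 to 2.62 TPM in shNFKBIZ. MITF made up most of these sums, with 2.83 to 3.58 TPM in shCtrl and 1.72 to 2.16 TPM in shNFKBIZ. The 5 markers of dedifferentiated melanoma summed to 558 to 585 TPM in shCtrl and 893 to 903 TPM in shNFKBIZ. AXL was the largest of them, and NGFR was at most 0.113 TPM in the 6 libraries. The leukocyte list summed to 96.7 to 100 TPM and 198 to 200 TPM, nearly all from the lysosomal CD68, while CD3E was at 0 and PTPRC was at most 0.0113 TPM. The keratinocyte list summed to 60.1 to 72.1 TPM and 73.1 to 80.7 TPM, nearly all from KRT10, with KRT1 at 0, and the endothelial list stayed below 1 TPM in each library. The part of the markers that moved with the groups in the results below was not tested.

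Start site sequences are shown first, because the members rose together and because LYPD1 has 2 annotated starts that differ in sequence. The 300-base windows around the starts are those of RefSeq on GRCh38.p14, and 2 of the 3 members, NTSR1 and LYPD1, had an entry. The windows were searched on both strands for TGANTCA (AP-1), TGACNNNGC (the core of the antioxidant response element), CACGTG (E-box), GGGA and CC with any 4 bases between them (NF-κB-like), TTCNNNGAA (STAT-like) and TGACGTCA (CRE), and matches are in capitals.
LYPD1 upstream start (chr2:132671477-132671776, minus strand): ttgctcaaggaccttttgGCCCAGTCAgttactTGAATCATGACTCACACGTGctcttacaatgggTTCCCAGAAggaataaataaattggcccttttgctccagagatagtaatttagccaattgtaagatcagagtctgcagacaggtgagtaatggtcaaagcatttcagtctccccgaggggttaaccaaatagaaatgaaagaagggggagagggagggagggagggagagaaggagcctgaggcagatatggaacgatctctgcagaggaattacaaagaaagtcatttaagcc
LYPD1 downstream start (chr2:132670156-132670455, minus strand): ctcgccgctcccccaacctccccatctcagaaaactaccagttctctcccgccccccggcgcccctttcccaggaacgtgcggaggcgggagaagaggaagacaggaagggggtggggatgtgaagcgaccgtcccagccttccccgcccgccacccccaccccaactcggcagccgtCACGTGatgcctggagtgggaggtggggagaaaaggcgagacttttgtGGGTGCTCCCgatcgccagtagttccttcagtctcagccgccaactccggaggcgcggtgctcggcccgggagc
NTSR1 start (chr20:62708586-62708885, plus strand): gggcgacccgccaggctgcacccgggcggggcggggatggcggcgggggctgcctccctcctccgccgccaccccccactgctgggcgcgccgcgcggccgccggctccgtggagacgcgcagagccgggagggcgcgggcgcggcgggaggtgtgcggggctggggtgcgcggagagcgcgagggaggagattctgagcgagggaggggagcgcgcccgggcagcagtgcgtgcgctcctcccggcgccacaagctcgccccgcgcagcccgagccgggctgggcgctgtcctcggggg

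The window of the upstream LYPD1 start held 2 AP-1 matches, followed directly by an E-box match, with an antioxidant response element core match before them and a STAT-like match after them. An AP-1 match was present in 7.71% of all 35116 RefSeq windows of this length, an E-box match in 7.26%, an antioxidant response element core in 13.3% and a STAT-like match in 7.66%. The downstream LYPD1 window held 1 E-box match and 1 NF-κB-like match, which 25.6% of windows hold. The NTSR1 window held no match to the 6 motifs, and CRE matches, found in 1.85% of windows, were in none of the 3. The NTSR1 window was 81.7% G and C with 45 CpG dinucleotides, more than 96.5% of windows. The upstream LYPD1 window had 3 CpG dinucleotides and 45.3% G and C, and the downstream window 24 and 67.0%, against medians of 14 and 58.7%. These shares count windows with any match, and the share with 2 AP-1 matches was not counted. The matches describe the letters and do not show that a factor binds there. Which LYPD1 start the cells used was not tested.

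In shCtrl cells the members were near the lower end of the genes that could be tested. NTSR1 (ENSG00000101188, chromosome 20, 62708836 to 62762771, plus strand of hg38) was counted in exons 14, 12 and 9 times in the shCtrl libraries, against 271, 276 and 247 times in the shNFKBIZ libraries. The highest shCtrl library was thus far below the lowest shNFKBIZ library. The level went from 0.447 ± 0.0817 to 10.7 ± 0.791 TPM (SD, n = 3), a log2 fold change of 4.48 (SE 0.159) or 22.3-fold.

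LYPD1 (ENSG00000150551, chromosome 2, 132643286 to 132671579, minus strand) had exon reads of 20, 17 and 23 in shCtrl against 232, 236 and 230 in shNFKBIZ. The shNFKBIZ libraries were close to each other, with a coefficient of variation of 3.0% in TPM against 20.5% in shCtrl, where counts were low. Its level went from 0.825 ± 0.169 to 10.0 ± 0.300 TPM (SD, n = 3), a log2 fold change of 3.52 (SE 0.147) or 11.5-fold.

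MN1 (ENSG00000169184, chromosome 22, 27748277 to 27801756, minus strand) had exon reads of 31, 26 and 32 in shCtrl against 370, 430 and 354 in shNFKBIZ. Its level went from 0.589 ± 0.0920 to 7.97 ± 0.965 TPM (SD, n = 3), a log2 fold change of 3.68 (SE 0.130) or 12.8-fold. Of the members it varied most among the shNFKBIZ libraries, with a coefficient of variation of 12.1%, and shNFKBIZ replicate 2 was the highest.

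**Figure D1:**
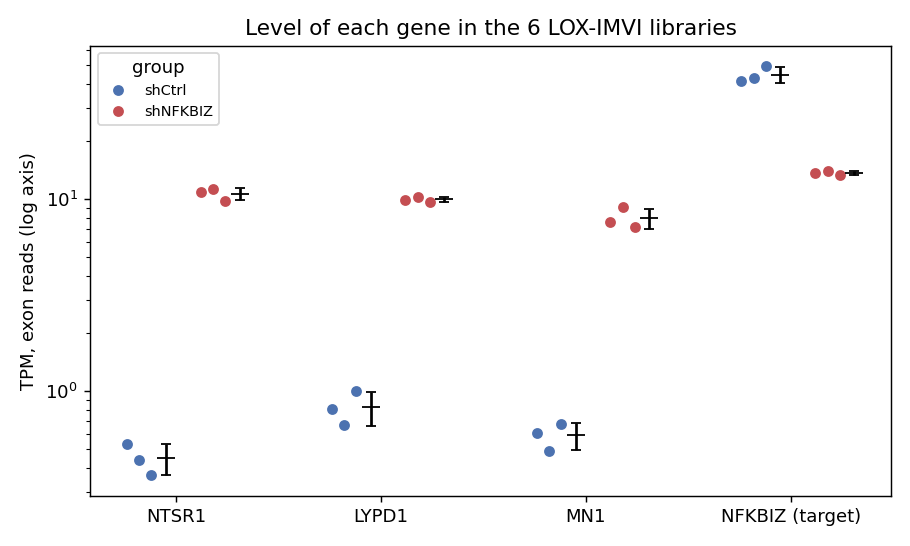
Level in TPM from exon reads (log axis) of the 3 members and of the targeted gene NFKBIZ, with 1 point per library and the mean ± SD of 3 libraries as a black bar. The members lie between 0.368 and 1.0 TPM in shCtrl and between 7.21 and 11.3 TPM in shNFKBIZ, while NFKBIZ goes the other way.

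All 3 members passed the low-count filter, NTSR1 only through its counts in shNFKBIZ. All 3 had higher values in each shNFKBIZ library than in any shCtrl library. Such a lack of overlap in this direction held for 34.1% of the 13843 genes tested. The 3 members were also past the threshold, an adjusted P of at most 0.05 and at least a 2-fold change, as were 3.84% of the genes tested in this direction. An adjusted P of at most 0.05 with no fold limit was met by 65.3% in either direction. The members were picked on this contrast, so nothing is read from these counts. By log2 fold change NTSR1 was number 4, MN1 number 11 and LYPD1 number 14 of the genes tested. In bulk RNA, a higher level in every cell and a larger share of cells that express the gene cannot be told apart.

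Per exon length, the order in shCtrl was NTSR1, MN1 and LYPD1 from low to high. NTSR1 (0.368 to 0.531 TPM) overlapped MN1 (0.490 to 0.672 TPM), and MN1 overlapped LYPD1 (0.665 to 1.0 TPM), whereas NTSR1 and LYPD1 did not overlap. In shNFKBIZ the order was MN1, LYPD1 and NTSR1. MN1 (7.21 to 9.06 TPM) stayed below both others, and LYPD1 (9.72 to 10.3 TPM) lay within the range of NTSR1 (9.80 to 11.3 TPM) except for its lowest library. In shCtrl, only 3.45% of the genes tested had a mean TPM below that of NTSR1, 4.83% below MN1 and 7.15% below LYPD1, and the median over these genes was 16.5 TPM. In shNFKBIZ these shares were 39.8%, 34.4% and 38.5%, so the members moved from the low end of the levels to just below the middle. Genes low in both groups are not among the genes tested, which limits how these shares can be read. The differences in mean TPM were 10.2 for NTSR1, 9.17 for LYPD1 and 7.38 for MN1.

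Reads from introns and across splice junctions give a second view of the same libraries, since intron reads come mostly from unspliced transcripts. NTSR1 had 18, 16 and 8 intron reads in shCtrl and 114, 155 and 146 in shNFKBIZ, without overlap. The log2 fold change of its intron reads was 3.20 (SE 0.196), or 9.20-fold, which is 1.27 lower on the log2 scale than that of its exon reads. Intron reads made up 54.5% of the reads assigned to NTSR1 in shCtrl (exact 95% interval 42.8% to 65.9%) and 34.3% in shNFKBIZ (31.6% to 37.1%). The exact intervals here and below pool the libraries of a group. They cover counting error only and leave out the spread between cultures. Summed over all genes, the intron share of a library was 7.16% to 8.15%, below that of NTSR1 in both groups. Such a sum gives most weight to highly expressed genes, and the shares of single genes were not compared.

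For LYPD1, the fold change of intron reads was not below that of exon reads. It had 2, 3 and 5 intron reads in shCtrl and 44, 49 and 70 in shNFKBIZ, a log2 fold change of 3.89 (SE 0.338) or 14.8-fold. The difference from the exon change was -0.37 on the log2 scale, about the size of the SE of the intron value. The intron share was 14.3% (exact 95% interval 7.07% to 24.7%) in shCtrl and 18.9% (16.4% to 21.7%) in shNFKBIZ. By library it was 9.09% to 17.9% in shCtrl and 15.9% to 23.3% in shNFKBIZ.

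MN1 had 9, 6 and 6 intron reads in shCtrl and 46, 72 and 54 in shNFKBIZ, again without overlap. The log2 fold change was 2.92 (SE 0.274), or 7.57-fold, 0.76 below that of the exon reads. The intron share was 19.1% (exact 95% interval 12.2% to 27.7%) and 13% (11.2% to 14.9%). On intron reads all 3 members were past the threshold and without overlap, as were 2.71% and 24.5% of the 12119 genes tested. Of these genes 6.6% were past it in either direction, and 38.8% had an adjusted P of at most 0.05 (edgeR). By intron fold change LYPD1 was number 3, NTSR1 number 7 and MN1 number 9. With few shCtrl reads, the members passed the low-count filter on intron reads only through shNFKBIZ. The intron reads come from the contrast on which the members were picked, so nothing is read from these counts or ranks.

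Reads that span a splice junction were few, and they differed between the members. LYPD1 had 3, 2 and 2 in shCtrl and 24, 27 and 22 in shNFKBIZ, a ratio of the scaled sums of 10.3 (exact 95% interval 4.77 to 26.6), close to the ratio of 11.5 (8.84 to 15.3) of its exon reads. NTSR1 had 0, 1 and 0 in shCtrl and 11, 16 and 9 in shNFKBIZ, a ratio of 35.7 with an interval of 6.0 to 1450 that the single shCtrl read leaves wide. MN1 had none in shCtrl and 7, 1 and 3 in shNFKBIZ. Its scaled shNFKBIZ sum was 3.63 times a floor of 3 reads over the shCtrl group, a value without an interval. The intervals of LYPD1 and NTSR1 cover counting error only.

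Junction reads were 10.6% of the exon reads of LYPD1, 4.46% of those of NTSR1 and 0.885% of those of MN1, against a median of 20.9% over the genes tested. In GENCODE release 44 the longest MN1 transcript has 2 exons, one of them 4994 of its 7814 bases. The longest NTSR1 transcript has 4 exons, and a single exon holds 2754 of its 4133 bases, so that most positions of either transcript are far from a junction. The exon lengths of the 3 members in that release (4238, 3979 and 8257 bases for NTSR1, LYPD1 and MN1) equal those in the deposited tables.

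**Figure D2:**
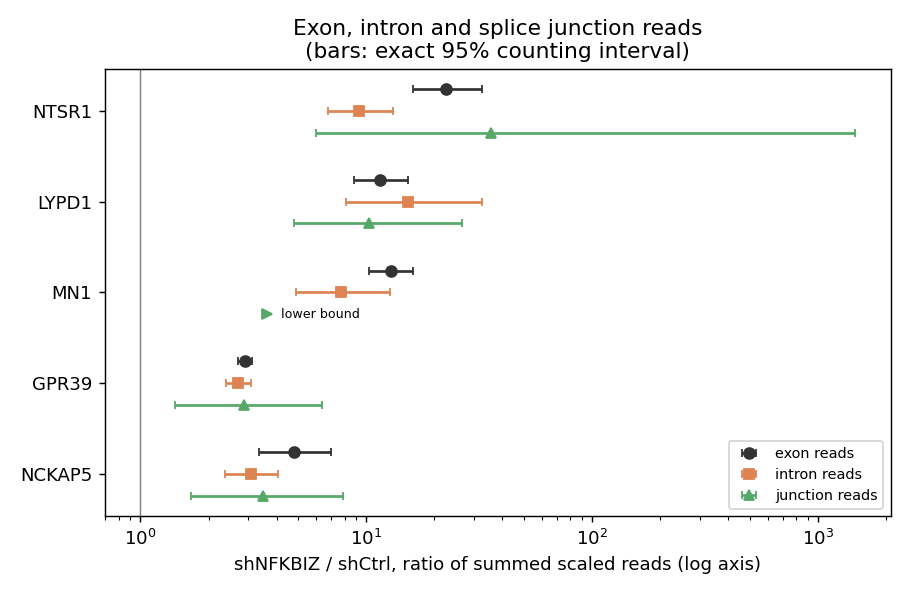
Ratio of the summed reads of shNFKBIZ to shCtrl, scaled for library size (log axis), for exon, intron and splice junction reads of the members and of 2 neighbours of LYPD1, with exact 95% counting intervals. All intervals lie above 1, and the intron ratio of NTSR1 (9.28) lies below its exon ratio (22.5). The MN1 junction mark, labelled lower bound, is the shNFKBIZ sum over a floor of 3 reads, because shCtrl had no such read. It leaves out the counting error of the shNFKBIZ reads.

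Genes that overlap the members could share reads with them, because strand was not used in the counting. No gene of the tables overlapped MN1. The exons of the antisense lncRNA ENSG00000223669 lie in introns of NTSR1 and had 0, 2 and 0 reads in shCtrl against 0, 0 and 1 in shNFKBIZ. Those of ENSG00000230065 lie in introns of LYPD1 and had no read in any library. Both counts are far below those of NTSR1 and LYPD1.

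The overlap with GPR39 is larger. GPR39, a zinc-sensing G protein-coupled receptor of the same subfamily as the neurotensin receptors, lies on the opposite strand, and the 3′ ends of both genes overlap over 3297 bases. In GENCODE release 44 their exons share 1180 bases, which is 29.7% of the exon bases of LYPD1 and 37.6% of those of GPR39. GPR39 itself was higher in shNFKBIZ cells, with exon reads of 318, 336 and 351 in shCtrl against 942, 1053 and 948 in shNFKBIZ. It rose from 17.2 to 52.8 TPM, which is 1.54 on the log2 scale (SE 0.0662, edgeR adjusted P 8.94e-15).

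For the exon reads in the shared bases, LYPD1 and GPR39 cannot be told apart in these counts. The same may hold for intron reads, since 302 exon bases of GPR39 lie in introns of LYPD1. The part of shared reads in the LYPD1 exon and intron values was not tested. On junction reads the ratio was 10.3 (exact 95% interval 4.77 to 26.6) for LYPD1 and 2.88 (1.42 to 6.34) for GPR39, and these intervals overlap. On exon reads the ratio was 11.5 (8.84 to 15.3) for LYPD1 and 2.90 (2.70 to 3.12) for GPR39, and on intron reads 15.3 (8.12 to 32.5) and 2.71 (2.39 to 3.09). Every exon and intron read of the members mapped to 1 place, and unique reads gave the same counts as total reads.

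The surroundings of the members were then compared, taking each gene of the tables within 500 kb. Near LYPD1, 2 of 15 genes could be tested, and both were past the threshold and higher, GPR39 and NCKAP5. NCKAP5 lies on the same strand as LYPD1 and ends 208 bases before the region of LYPD1 begins. It had exon reads of 11, 11 and 15 in shCtrl against 63, 57 and 58 in shNFKBIZ, without overlap. The change was 2.24 on the log2 scale (SE 0.236, edgeR adjusted P 2.89e-08), and that of its intron reads, which lie outside LYPD1, was 1.62 (SE 0.191, edgeR adjusted P 9.89e-09). NCKAP5 stayed low, at 0.212 TPM in shCtrl and 1.06 TPM in shNFKBIZ.

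Near NTSR1, 16 of 61 genes could be tested, and 1 was past the threshold, CABLES2, higher by 1.05 on the log2 scale (SE 0.106, edgeR adjusted P 1.4e-08) at 301550 bases from NTSR1. The nearest tested genes on either side, SLCO4A1 (0.12, SE 0.0875, edgeR adjusted P 0.219) and MRGBP (0.04, SE 0.0460, edgeR adjusted P 0.449), did not pass the test on exon reads. The intron reads of SLCO4A1 were higher by 0.39 on the log2 scale (SE 0.106, edgeR adjusted P 0.00379), which is less than 2-fold. The median of the 16 genes was 0.13. Near MN1, 3 of 23 genes could be tested and none was past the threshold by edgeR, while PITPNB and TTC28 had an adjusted P below 0.05. PITPNB, the nearest tested gene, had a log2 fold change of -0.49 (SE 0.0441), TTC28 one of -0.54 (SE 0.112), and TTC28-AS1 one of 0.08 (SE 0.0897, edgeR adjusted P 0.428). Past the threshold in either direction were 8.96% of all genes tested.

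**Figure D3:**
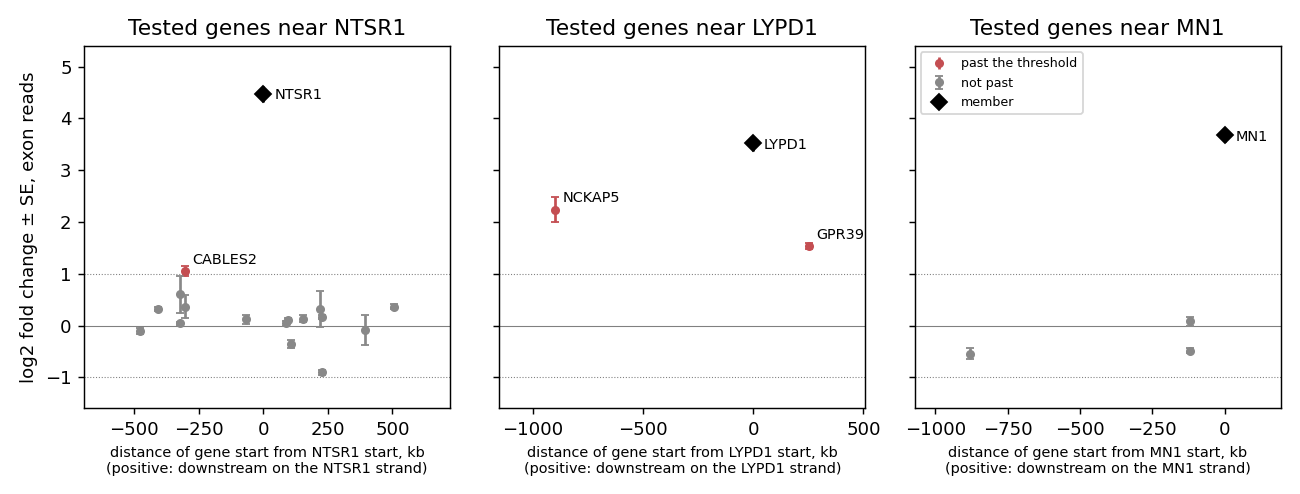
Log2 fold change of exon reads ± SE (vertical axis) of each tested gene within 500 kb of NTSR1, LYPD1 and MN1 against the distance of its start from the start of the member in kb, with dotted lines at a 2-fold change. Both tested neighbours of LYPD1 are higher (2.24 and 1.54), whereas 1 of 16 near NTSR1 and none of 3 near MN1 is past the threshold.

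The receptor NTSR1 was read against the rest of the neurotensin system. NTS, the gene of its ligand, had no exon or intron read in any of the 6 libraries, where 3 exon reads, the limit that a count of 0 allows, would be 0.300 to 0.335 TPM. NTSR2, the other G protein-coupled receptor of neurotensin, also had none. SORL1, a sorting receptor that can bind neurotensin, had exon reads of 0, 0 and 0 in shCtrl against 1, 1 and 3 in shNFKBIZ, at or under the floor.

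SORT1, the neurotensin-binding sorting receptor sortilin, had exon reads of 4, 8 and 7 in shCtrl against 20, 11 and 11 in shNFKBIZ, without overlap. The change was 1.12 on the log2 scale (SE 0.399, edgeR adjusted P 0.0182). The call was lost with DESeq2 (1.13, adjusted P 0.110), without shCtrl replicate 1 (0.87, edgeR adjusted P 0.0945) and without shNFKBIZ replicate 1 (0.77, edgeR adjusted P 0.154). It was the 1 gene past the threshold among the 5 of 13 listed that could be tested. The 4 peptidases that could be tested changed by less than 2-fold, with log2 fold changes of 0.21 for MME, 0.30 for ECE1, 0.44 for THOP1 and -0.41 for NLN. The peptidase genes ACE (0, 3 and 1 exon reads in shCtrl, none in shNFKBIZ) and ECE2 (1 exon read in the 6 libraries) were too low to be tested. Of the 6 genes of the receptor subfamily other than NTSR1, 5 had no exon read in any library, and GPR39 was the exception.

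Of the 30 genes of Gq signalling, 26 were tested, 3 were past the threshold and lower, and none was past it and higher. They were PLCB4, a phospholipase C, with -1.88 (SE 0.154, edgeR adjusted P 4.95e-10), and the calcium release channels ITPR2, with -1.09 (SE 0.0430, edgeR adjusted P 1.86e-15), and ITPR3, with -1.06 (SE 0.0771, edgeR adjusted P 7.3e-11). Intron reads of PLCB4 (-2.19) and ITPR3 (-1.17) were also past the threshold, whereas those of ITPR2 were not (-0.25, SE 0.0792, edgeR adjusted P 0.0115). On exon reads ITPR3 was just short of 2-fold with library size alone (-0.97) and without shNFKBIZ replicate 3 (-0.999). The G protein genes GNAQ (0.02, SE 0.0452, edgeR adjusted P 0.692) and GNA11 (0.02, SE 0.0405, edgeR adjusted P 0.737) had changes within their error. Of the 26 genes, 4 had a log2 fold change above 0, and the median was -0.37, against 0.00431 over all genes tested. Beside this count of 3 in 26, 5.12% of all genes tested were past the threshold and lower. This list and the other lists of the report were chosen with earlier results of these data known. No conclusion is therefore drawn from their shares or medians.

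For LYPD1, 29 other genes of the Ly6/uPAR family were listed, of which 15 had no exon read and 9 could be tested. Of these 9, 2 were past the threshold and higher and 1 was lower, against 3.84% and 5.12% of all genes tested. PINLYP rose by 1.94 on the log2 scale (SE 0.206, edgeR adjusted P 3.18e-08), from 0.729 to 2.97 TPM, and LY6G5C with 1.33 (SE 0.282, edgeR adjusted P 0.000284), from 0.559 to 1.5 TPM. CD177, known from neutrophils, fell with -1.15 (SE 0.421, edgeR adjusted P 0.0210), from 0.873 to 0.417 TPM. That call was lost with DESeq2 (-1.16, adjusted P 0.115), without shCtrl replicate 1 (-0.88, edgeR adjusted P 0.128), without shNFKBIZ replicate 1 (-0.94, edgeR adjusted P 0.0890) and without shNFKBIZ replicate 3 (-0.93, edgeR adjusted P 0.0950). The well-expressed members LY6E, LY6K, PLAUR and CD59, at 148 to 183 TPM in shCtrl, had log2 fold changes of -0.28, -0.03, 0.30 and 0.35.

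LYPD1 acts on nicotinic acetylcholine receptors, so their 16 subunits were examined. Of these, 9 had no exon read in any library and 4 could be tested, and none was past the threshold. CHRNA5 had 28.6 TPM in both groups (log2 fold change -0.08, SE 0.0626, edgeR adjusted P 0.248). CHRNA9 had -0.42 (SE 0.0707), CHRNA10 0.69 (SE 0.237) and CHRNB1 -0.48 (SE 0.208), all with an adjusted P below 0.05 (edgeR) and less than a 2-fold change.

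For MN1, all 26 listed BAF subunits were tested, and 1 was past the threshold, a share no larger than the 8.96% of all genes tested. DPF3 was higher by 1.72 on the log2 scale (SE 0.498, edgeR adjusted P 0.00515), at 0.0382 TPM in shCtrl and 0.140 TPM in shNFKBIZ. It had exon reads of 6, 7 and 0 in shCtrl against 14, 15 and 15 in shNFKBIZ, and its value without shCtrl replicate 3 was 1.17. The core subunits SMARCA4 (0.14, SE 0.0359) and SMARCB1 (-0.00107, SE 0.0485) changed little, and SMARCC1 (-0.99, SE 0.0360) and BCL7A (-0.96, SE 0.0470) were just short of 2-fold lower. The median of the 26 genes was 0.11.

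Of the 16 retinoid receptors, coactivators and homeodomain factors of the TALE class listed as partners of MN1, 15 were tested and 2 were past the threshold, both lower, against 5.12% of all genes tested. The median of the 15 genes was -0.02. On the log2 scale RARB had -1.08 (SE 0.0710, edgeR adjusted P 1.34e-11) and RARG -1.08 (SE 0.0475, edgeR adjusted P 1.26e-14), and both encode retinoic acid receptors. Both were just short of 2-fold with library size alone, at -0.99. The coactivators EP300 (-0.24, SE 0.0421), CREBBP (0.00609, SE 0.0400) and NCOA3 (0.15, SE 0.0454) were at 21.2 to 27.2 TPM in shCtrl.

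Of 20 genes of retinoid metabolism and response, 9 were tested, 4 were past the threshold and lower (5.12% of all genes tested), and none was past it and higher (3.84%). Next to RARB these were DHRS3, a retinal reductase, with -1.98 (SE 0.124, edgeR adjusted P 5.89e-12), STRA6, a retinol transporter, with -1.94 (SE 0.350, edgeR adjusted P 5.31e-05), and HOXA5, with -1.58 (SE 0.173, edgeR adjusted P 5.49e-08). STRA6 had exon reads of 27, 29 and 36 in shCtrl against 14, 4 and 6 in shNFKBIZ, and its value without shNFKBIZ replicate 1 was -2.61. CYP26B1, which breaks down retinoic acid, was just short of 2-fold higher, at 0.99 (SE 0.260, edgeR adjusted P 0.00206). The median of the 9 genes was -0.32. With library size alone 1 of the 4 genes past the threshold was higher, and 1 of 5 was higher without shCtrl replicate 1, without shCtrl replicate 3 and without shNFKBIZ replicate 1.

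**Figure D4:**
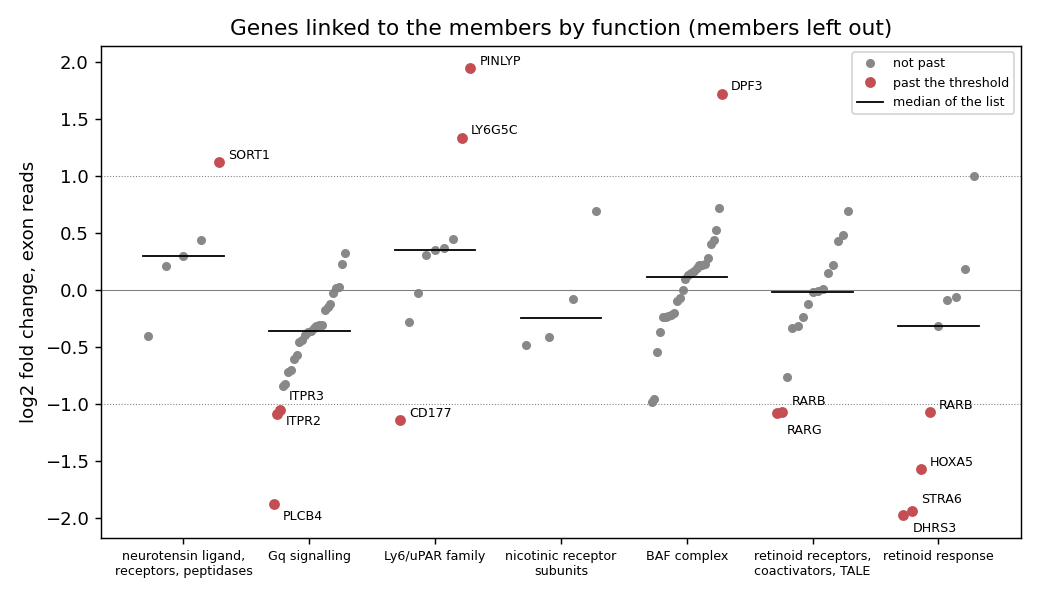
Log2 fold change of exon reads (vertical axis) of each tested gene in 7 lists linked to the members by function, members left out, with the median of each list as a line and dotted lines at a 2-fold change. Genes past the threshold are red and named, and in the Gq signalling, retinoid receptor and retinoid response lists all of them lie below 0 with the TMM scaling plotted, while 1 retinoid response gene is past it and higher with library size alone.

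The genes most like each member were found by the root mean square difference between log2 CPM profiles (reads scaled to library size) over the 6 libraries, centred on the shCtrl mean with 0.02 CPM added, among 11107 genes with a symbol and a mean of at least 50 exon reads. LYPD1 and MN1 were nearest to each other, with a difference of 0.141. Next came HMOX1, the haem-degrading enzyme haem oxygenase, at 0.287 from LYPD1 and 0.210 from MN1. Nearest to NTSR1 was MMP3, the matrix protease stromelysin, at 0.230, followed by HMOX1 at 0.482 and MN1 at 0.608. The third for LYPD1 was CALB2, calretinin, at 0.456, and the third for MN1 was MMP3 at 0.526. The order depended on the amount added. With 0.5 CPM added, LYPD1 and MN1 were again nearest to each other, at 0.230, but the next for LYPD1 were TRIM55 (0.317) and ANGPTL4 (0.339), and for MN1 NTSR1 (0.269) and HMOX1 (0.394). For NTSR1 the order was then HMOX1 (0.169), MN1 (0.269) and MMP3 (0.391). The 6 libraries form 2 groups, so this likeness is mostly a like size of change between the groups. MMP3 and HMOX1 started at higher levels than the members, with 3.91 and 21.2 TPM in shCtrl, and reached 86.7 and 316 TPM in shNFKBIZ.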

How the data were processed

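LOX-IMVI RNA was sequenced from 6 cultures, and the sample titles gave group and replicate number. The authors aligned reads to hg38 (Ensembl annotation) with CLC Genomics Workbench and ignored strand. The deposited tables hold counts of fragments for each gene in exons, introns and across splice junctions. The labels and the study's methods name different sequencing platforms, so none is given. TPM were recomputed from exon reads and exon length.

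Exon reads were filtered with filterByExpr (13843 of 47432 genes kept), scaled by TMM and fitted with edgeR 4.0.16 in R 4.3.3 (robust quasi-likelihood, two-sided, Benjamini-Hochberg adjustment over all genes tested). Intron reads were fitted the same way (12119 genes). The SE is the log2 fold change over the square root of F. The fits were tested on simulated data. Exact binomial intervals came from scipy 1.17.1. Replicate pairs differed beyond counting noise, with chi-square over its degrees of freedom at 1.69 to 4.18.

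The members and lists were chosen with earlier results of these data known, and some list genes are not reported here. Named genes were the members, NFKBIZ, overlapping genes, NTS, NTSR2, SORT1, SORL1, GPR39, the nearest tested gene on each side, up to 4 genes past the threshold per list with the largest change, and the 3 genes most like each member. Other list genes are examples chosen after their values were seen. Alternatives were RLE factors, library size alone, 2 other filters, the likelihood ratio test, DESeq2 1.42.0, unique reads, all gene reads, a replicate block, each library left out and 2 other thresholds. Adding 0.02 CPM for likeness replaced 0.5 after both had been seen.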

Additional observations from a re-analysis of the deposited data

How the results depend on the processing

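No fold change of a member changed direction under the alternatives run. The exon log2 fold change of NTSR1 fell from 4.48 to 3.94 when all gene reads were counted, which adds its intron reads. It was 4.35 to 4.62 when each library was left out. A minimum of 10 counts in each library leaves NTSR1 without an exon value and the members without an intron value. The other alternatives moved the values of the members by less than 1 SD between replicates, with 3.39 to 3.66 for LYPD1 and 3.56 to 3.77 for MN1. For intron reads the values were 2.93 to 3.42 for NTSR1, 3.63 to 4.30 for LYPD1 and 2.75 to 3.14 for MN1.

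On exon reads 1241 genes were past the threshold. There were 9039 with no fold change limit, 555 where mean TPM also had to differ by over 4, and 1315 to 1361 with each library left out. With library size alone the median of all genes moved from 0.00431 to 0.0937 and the share of higher genes from 42.9% to 53.4%. On intron reads the count was 800, and 466 with 10 counts in every library.

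With 10 counts in every library the lists had 0 neurotensin genes, 0 BAF genes and 1 Ly6/uPAR gene past the threshold, where fewer genes can be tested. With no filter 1 nicotinic gene and 2 genes near NTSR1 passed. With library size alone 0 retinoid receptor or cofactor genes did, and with DESeq2 0 neurotensin genes did. With each library left out, the neurotensin list had 0 to 1 and the BAF list 1 to 2, the latter without shCtrl replicate 3. The cause was not tested.

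Replicate numbers were not taken as pairs, because the correlations of deviations between libraries of 1 number were 0.0207, 0.0561 and 0.0288. Fitting a replicate block gave 1244 genes on exon reads and 801 on intron reads, with NTSR1 at 4.48, LYPD1 at 3.52 and MN1 at 3.68, and changed no call given here. In shCtrl, 9 to 32 exon reads per library limit the fold changes of the members.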
